A study of Mus musculus with 2 samples.

Results

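The genes described here encode proteins of the Z-disc, the plate that anchors the thin filaments at each end of the sarcomere. They were 7 of the 35163 genes counted: the alpha-actinins Actn3 and Actn2, the calsarcins Myoz1, Myoz2 and Myoz3, and their partners Ldb3 and Myot. They were taken by name, with earlier results of these data known, and no measured value sets which genes belong. Each was followed in those 171 of 763 sequenced cells in which over 5000 genes were detected and mitochondrial genes made up under 20% of the counts. The cells were single myofibers from the flexor digitorum brevis (FDB), a fast-twitch muscle that flexes the toes. They were taken as coming from 1 untreated C57BL/6J mouse older than 3 months. The paper names adult male mice of the C57BL/6J and DBA2 backgrounds, and gives no number of mice for these cells. The muscle was digested with collagenase, and single myofibers were placed in plate wells by large particle sorting. Of the 171 cells, 168 were labelled whole myocytes and 3 were fragments cut in imitation of a needle biopsy. The sorting described in the paper also took in a gate of shorter, rod-shaped fragments. The 168 cells were not split by gate here, so some may not be intact fibers. They came from 8 plates sequenced on 2 lanes, with each plate on 1 lane only.

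Alpha-actinin crosslinks actin filaments of opposite polarity at the Z-disc. Actn2 is the form made in all striated muscle, including the heart, and Actn3 is the form of fast skeletal fibers. The calsarcins, also called myozenins, bind alpha-actinin and the phosphatase calcineurin, with Myoz2 known from slow muscle and heart and Myoz1 and Myoz3 from fast muscle. Ldb3, also known as ZASP or Cypher, is a PDZ and LIM domain protein that binds alpha-actinin, and Myot encodes myotilin, which binds alpha-actinin, filamin C and actin.

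Each cell was assigned to the class of its most abundant myosin heavy chain gene among Myh1 (fast 2X), Myh2 (fast 2A), Myh4 (fast 2B), Myh7 (slow) and Myh8, none of which is among the 7 genes. This gave 117 fast 2X cells, 51 fast 2A cells, 2 slow cells and 1 fast 2B cell, and no cell had Myh8 as its leading gene. The paper counted more cells as slow, by high to modestly raised Myh7, so the fast 2A class here can include cells with much Myh7. Since all cells were taken as coming from 1 mouse, they are not replicates of a class. No test was run between classes. All limits given are 95% limits. For levels, ratios and summed shares they cover counting error only. Limits on a share of cells take the cells as independent draws and cover no spread between mice. A gene was called different between classes when its summed level differed by at least 1.5-fold.

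Actn3 and Actn2 are close relatives, so the sequences were compared to see whether a read could belong to either gene. The annotated Actn3 transcripts held 2836 different stretches of 66 bases, the length of the cDNA read, and 0 of them occurred in Actn2 transcripts. Of the 1822 such stretches in Myoz1, 0 occurred in Myoz2. The most alike stretches within a coding exon are shown because these are the places where a read comes nearest to fitting both genes. Both alpha-actinin stretches lie in exon 4 and both calsarcin stretches in exon 3, all on the minus strand of GRCm38. Capitals mark the bases that differ within each pair.
Actn3, chr19:4871774-4871839: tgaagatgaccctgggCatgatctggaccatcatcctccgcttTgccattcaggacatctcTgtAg
Actn2, chr13:12308903-12308968: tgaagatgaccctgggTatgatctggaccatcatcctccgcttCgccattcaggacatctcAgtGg
Myoz1, chr14:20653721-20653786: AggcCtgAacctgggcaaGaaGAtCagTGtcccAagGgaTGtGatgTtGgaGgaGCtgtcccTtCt
Myoz2, chr3:123026160-123026225: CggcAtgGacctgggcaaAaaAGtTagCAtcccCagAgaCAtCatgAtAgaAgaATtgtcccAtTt
The alpha-actinin stretches differed at 4 of 66 bases and shared at most 26 bases in a row. The calsarcin stretches differed at 21 of 66 and shared at most 10 in a row.

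Actn3 spans chromosome 19 from 4861216 to 4877909 and Actn2 chromosome 13 from 12269426 to 12340760. Myoz1 and Ldb3 both lie on chromosome 14, from 20649107 to 20656540 and from 34526603 to 34588682. Myoz2 lies on chromosome 3 from 123006206 to 123035015, where the annotated gene Gm22066 overlaps it on the same strand. All 5 genes are on the minus strand.

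The stretches of 250 bases before the start of transcription are shown for the 3 genes with a window in the promoter table, since they set 2 genes that were higher in fast 2A cells, Myoz2 and Actn2, beside Ldb3, which was at the same level in both classes (values below). Ldb3 had 2 windows, of which 1 is shown. They come from RefSeq on GRCm38.p6, minus strand. Capitals mark matches to the E-box CANNTG, the MEF2 motif and the CArG motif, which are known from muscle promoters.
Myoz2, chr3:123034988-123035237: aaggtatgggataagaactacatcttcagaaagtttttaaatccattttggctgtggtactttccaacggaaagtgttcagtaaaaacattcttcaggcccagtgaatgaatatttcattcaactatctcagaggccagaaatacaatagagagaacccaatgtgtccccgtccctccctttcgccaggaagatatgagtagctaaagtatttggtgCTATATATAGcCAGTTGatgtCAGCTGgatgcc
Actn2, chr13:12340733-12340982: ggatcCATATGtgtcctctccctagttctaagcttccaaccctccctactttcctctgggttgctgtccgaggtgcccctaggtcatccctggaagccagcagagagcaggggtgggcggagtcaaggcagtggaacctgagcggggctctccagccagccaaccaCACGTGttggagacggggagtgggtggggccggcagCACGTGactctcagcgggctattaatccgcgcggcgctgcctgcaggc
Ldb3, chr14:34588682-34588931: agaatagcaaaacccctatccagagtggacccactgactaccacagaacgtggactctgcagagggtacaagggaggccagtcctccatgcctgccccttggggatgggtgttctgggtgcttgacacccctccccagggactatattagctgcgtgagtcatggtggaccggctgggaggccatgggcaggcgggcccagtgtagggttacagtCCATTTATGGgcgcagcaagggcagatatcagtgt
The Myoz2 stretch held 1 MEF2 match beginning 33 bases before the start, followed without overlap by E-boxes at 22 and 12 bases. The Actn2 stretch held 3 E-boxes, at 245, 84 and 48 bases before the start, and the Ldb3 stretch held 1 CArG match at 35 bases. All distances are from the RefSeq start. The gene spans given above reach into the windows of Myoz2 and Actn2, to 123035015 and 12340760. Both Myoz2 E-boxes lie inside the Myoz2 span, and the MEF2 match crosses its end. The motif TATAAA was searched as well, and its matches in these 3 windows numbered 0. Both strands were searched, and over 32851 RefSeq windows of 250 bases before to 50 after a start, 66.2% held an E-box, 12.4% TATAAA, 2.92% a MEF2 match and 1.47% a CArG match. These matches are letters in the sequence, and no binding was measured. Windows for Actn3, Myoz1, Myoz3 and Myot were not analysed here.

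The 171 cells held from 28827 to 1542996 counts each, with a median of 239581. Median counts were 255726 in fast 2X and 206510 in fast 2A cells, and median mitochondrial shares were 5.01% and 6.96%. The 5 myofiber markers together (Acta1, Ckm, Mylpf, Tnnt3 and Ryr1) reached 63600 CPM, counts of a class scaled to a total of 1000000, in fast 2X and 60985 CPM in fast 2A cells. Markers of fast 2X (Pvalb, Mybpc2 and Tmem233) summed to 7271 and 2321 CPM, and markers of slow or fast 2A fibers (Tnnt1, Tnni1, Myl3 and Tnnc1) to 1085 and 7201 CPM. Of the lists for other cells of muscle, the smooth muscle and pericyte list was the highest, at 139 CPM in fast 2X and 119 CPM in fast 2A cells, and the endothelial list followed at 43.1 and 40.5 CPM. The satellite cell, fibroblast and macrophage lists lay between 9.41 and 33.7 CPM in each class, and the Schwann cell list was at 10.8 and 4.20 CPM. No gene of any list was at 0 in either class.

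A group of 8 cells stood apart from the others in the summed level of the 7 genes. They were found as the cells with less than 500 CPM of Ldb3, itself one of the 7, by a limit set after the values were seen, and comprised 6 fast 2X cells, 1 fast 2A cell and the only fast 2B cell. The 7 genes summed to between 1520 and 3556 CPM in these cells, against 4915 to 12234 CPM in the other 163. Their myofiber markers were also lower, at 10626 to 19923 CPM against 35278 to 88550 CPM. Their markers of endothelial, smooth muscle, satellite, fibroblast, macrophage and Schwann cells summed to between 937 and 12870 CPM, against 50.4 to 623 CPM in the others. What part these other cells' RNA had in the low levels was not tested. The results below, with their ranges and coefficients of variation, are given with all cells. The lowest values of Actn2, Myoz1, Myoz2 and Myot in fast 2X and in fast 2A cells all came from those 8 cells. Leaving out every cell with more than 500 CPM of the markers of other cell types left 110 fast 2X and 50 fast 2A cells. Values without them are given for the share of cells in which Actn3 or Myoz1 led and for the log2 ratios of the 5 genes past 1.5-fold.

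Actn3 was lower in fast 2A than in fast 2X cells. Its summed level was 2457 CPM (limits 2441 to 2472) in fast 2X cells and 737 CPM (722 to 753) in fast 2A cells, 3.33-fold lower, a log2 ratio of fast 2A over fast 2X of -1.74 (-1.77 to -1.70). Single fast 2X cells ranged from 335 to 4692 CPM with a median of 2342, and single fast 2A cells from 441 to 1165 CPM with a median of 781. The ranges overlapped at the low end, but 0 of 51 fast 2A cells exceeded the fast 2X median. The spread was wider in fast 2X, with a coefficient of variation between cells of 40.2% against 20.6%. Both slow cells were low, at 596 and 629 CPM, and the fast 2B cell held 1331 CPM.

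Actn2 went the other way, with a smaller difference. It was at 1548 CPM (1536 to 1560) in fast 2X and 2583 CPM (2554 to 2612) in fast 2A cells, a log2 ratio of 0.74 (0.72 to 0.76). Single cells ranged from 254 to 3242 CPM (median 1559) in fast 2X and from 831 to 5507 CPM (median 2483) in fast 2A. Although the ranges overlapped widely, 50 of 51 fast 2A cells lay above the fast 2X median. The slow cells held 2698 and 2514 CPM, within the fast 2A range. Added together, the alpha-actinins were at 4005 CPM in fast 2X and 3320 CPM in fast 2A, a log2 ratio of -0.27 that did not reach 1.5-fold.

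Within a cell, the balance of the alpha-actinins was expressed as the Actn3 share of all Actn3 and Actn2 counts. The summed share was 61.3% (61.1 to 61.6) in fast 2X and 22.2% (21.8 to 22.6) in fast 2A cells. Actn3 exceeded Actn2 in 88 of 117 fast 2X cells (75.2%, exact limits 66.4 to 82.7) and in 0 of 51 fast 2A cells (limits 0 to 6.98%). It reached at least 2 times Actn2 in 32 of 117 fast 2X cells (27.4%) and 0 of 51 fast 2A cells. Per-cell shares ran from 16.7% to 80.1% (median 61.1%) in fast 2X and from 9.27% to 45.1% (median 23.8%) in fast 2A. Of the fast 2X cells, 20 fell below the highest fast 2A cell, so the share did not separate the classes completely. That highest fast 2A cell was among the 8 cells described above. Without the cells rich in other markers, Actn3 exceeded Actn2 in 82 of 110 fast 2X cells (74.5%) and 0 of 50 fast 2A cells.

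Both slow cells lay within the fast 2A range in this balance, with Actn3 shares of 18.9% and 19.2%. The fast 2B cell had 60.7%, close to the fast 2X median, from 342 Actn3 and 221 Actn2 counts. With 2 slow cells and 1 fast 2B cell, and the latter among the 8 that stood apart, these values describe those cells only.

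Myoz1 was higher in fast 2X and Myoz2 in fast 2A cells. Myoz1 was at 2210 CPM (2195 to 2224) in fast 2X and 1284 CPM (1263 to 1304) in fast 2A, a log2 ratio of -0.78 (-0.81 to -0.76). Its per-cell range was 316 to 4335 CPM (median 2275) in fast 2X and 517 to 2788 CPM (median 1326) in fast 2A. Only 2 of 51 fast 2A cells passed the fast 2X median. Myoz2 was at 275 CPM (270 to 281) in fast 2X and 783 CPM (767 to 799) in fast 2A, 2.84-fold higher, with a log2 ratio of 1.51 (1.47 to 1.55). Its per-cell range was 16.6 to 1129 CPM (median 262) in fast 2X and 36.9 to 1557 CPM (median 784) in fast 2A, and 50 of 51 fast 2A cells lay above the fast 2X median. Myoz2 was the most uneven of the 6 abundant genes within fast 2X, with a coefficient of variation of 70.1%. The slow cells had still more Myoz2, 1207 and 1083 CPM, and less Myoz1, 702 and 686 CPM.

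Myoz1 exceeded Myoz2 in most fast 2A cells, although by at least 2 times in only 19 of 51 (37.3%). The Myoz1 share of Myoz1 and Myoz2 counts was 88.9% (88.7 to 89.1) in fast 2X and 62.1% (61.5 to 62.7) in fast 2A. Myoz1 exceeded Myoz2 in 117 of 117 fast 2X cells (limits 96.9 to 100%) and in 42 of 51 fast 2A cells (82.4%, limits 69.1 to 91.6). Shares ran from 62.2% to 98.1% (median 89.1%) in fast 2X and from 38.4% to 93.3% (median 63.6%) in fast 2A. The fast 2A cell at 93.3% was again the one among the 8 cells that stood apart and rested on 28 Myoz1 and 2 Myoz2 counts. The next highest fast 2A cell had 84.0%. In the slow cells Myoz2 led, with Myoz1 shares of 36.8% and 38.8%. Without the cells rich in other markers, Myoz1 exceeded Myoz2 in 110 of 110 fast 2X and 41 of 50 fast 2A cells.

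**Figure D1:**
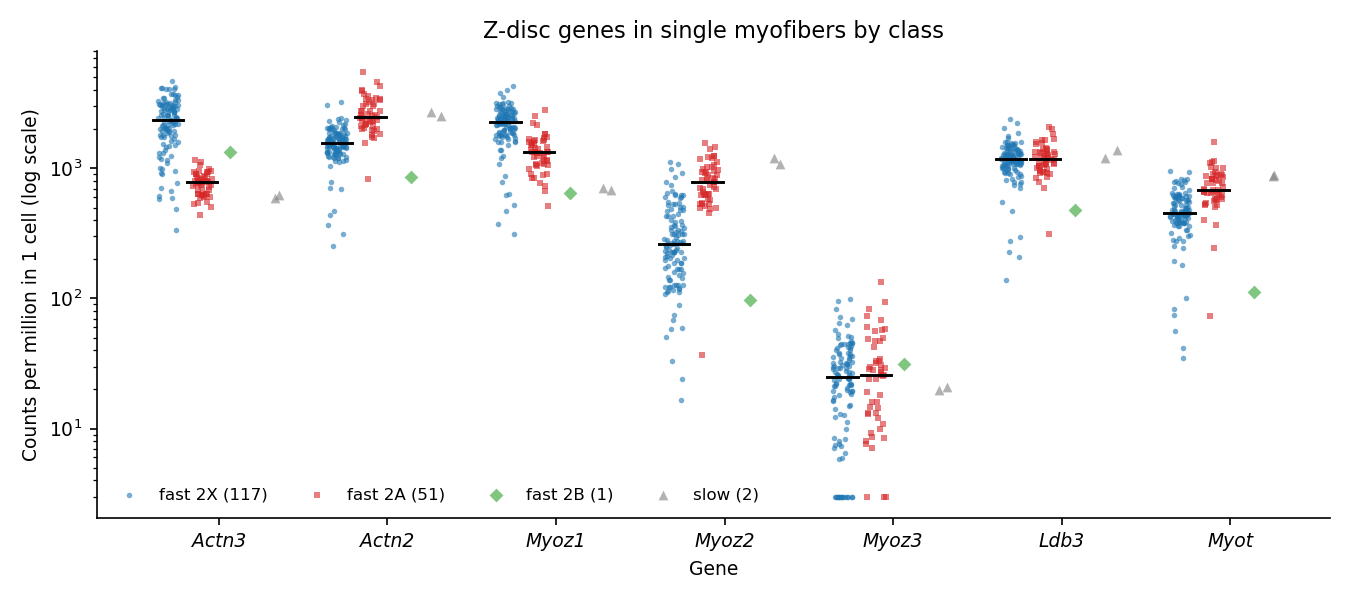
CPM of the 7 genes in each of 171 cells, on a log axis, by class, with medians as black bars for fast 2X and fast 2A and cells without a count of Myoz3 drawn at 3. Actn3 and Myoz1 sit higher in fast 2X cells (medians 2342 and 2275 CPM), Actn2, Myoz2 and Myot higher in fast 2A cells, and Ldb3 and Myoz3 at the same height in both.

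Myoz3 was the rare calsarcin. Its summed level was 27.8 CPM (26.2 to 29.5) in fast 2X and 26.0 CPM (23.2 to 29.1) in fast 2A, a log2 ratio of -0.10 whose limits, -0.28 to 0.09, span 0. A cell held a median of 7 Myoz3 counts in fast 2X and 5 in fast 2A, and 154 of 171 cells had at least 1. At this depth single-cell values of Myoz3 are coarse, and differences between cells cannot be read from them. All calsarcins added up to 2513 CPM in fast 2X and 2092 CPM in fast 2A, a log2 ratio of -0.26 that, like that of the alpha-actinins, did not reach 1.5-fold.

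Ldb3 had the same level in both classes, 1177 CPM (1166 to 1188) in fast 2X and 1183 CPM (1164 to 1203) in fast 2A. The log2 ratio was 0.01 with limits of -0.02 to 0.03. Per-cell medians were 1190 and 1191 CPM, and 26 of 51 fast 2A cells lay above the fast 2X median. The slow cells held 1374 and 1202 CPM. The gene has many transcript forms, and these counts add them together.

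Myot was 1.55-fold higher in fast 2A cells, just past the limit of 1.5-fold. It was at 484 CPM (478 to 491) in fast 2X and 753 CPM (738 to 769) in fast 2A, a log2 ratio of 0.64 (0.60 to 0.67). Single cells ranged from 34.7 to 951 CPM (median 455) in fast 2X and from 73.9 to 1600 CPM (median 684) in fast 2A, with 47 of 51 fast 2A cells above the fast 2X median. The slow cells, at 892 and 874 CPM, were both above the fast 2A median.

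Compared per kilobase of transcript, the order of the genes changed between the classes. In fast 2X cells Myoz1 led with 1714 CPM per kilobase, followed by Actn3 with 851 and Actn2 with 514, while Myoz2, Ldb3 and Myot lay close together at 233, 230 and 219. In fast 2A cells Myoz1 still led with 996, followed by Actn2 with 857, Myoz2 with 663, Myot with 341 and Actn3 with 255. Actn3 thus passed from above Actn2, Myoz2 and Myot to below them. Myoz3 was lowest in both, at 8.10 and 7.58. Transcript lengths are those of the longest annotated protein-coding transcript, and in a library primed at the 3′ end of the RNA counts need not scale with length.

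In all, 5 of the 7 genes passed 1.5-fold, with 3 higher in fast 2A and 2 higher in fast 2X cells. Of 8741 genes with at least 500 counts, 10.0% passed in either direction, 2.57% higher in fast 2A and 7.44% higher in fast 2X. The median absolute log2 ratio was 0.74 for the 7 genes and 0.21 for all genes, whose median ratio was -0.09. Scaling by trimmed means (TMM) in place of total counts raised every log2 ratio by 0.11, and the same 5 genes passed with the same directions. Without the cells rich in other cell types' markers the log2 ratios were -1.75 for Actn3, 0.71 for Actn2, -0.81 for Myoz1, 1.49 for Myoz2 and 0.61 for Myot. TMM also turned the split of all genes from 225 higher in fast 2A and 650 higher in fast 2X to 385 and 402.

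Of 27 other listed genes of the Z-disc, 3 were higher in fast 2A, 1 was higher in fast 2X and 23 did not pass 1.5-fold, and their median log2 ratio was 0.11. Ankrd2, an ankyrin repeat protein of the stretch response, was at 118 CPM in fast 2X and 459 CPM in fast 2A, a log2 ratio of 1.97 (1.91 to 2.02). Pdlim1, a PDZ and LIM domain protein that binds alpha-actinin, was at 18.1 and 51.6 CPM (log2 ratio 1.51, 1.35 to 1.67), and Csrp3, the muscle LIM protein, at 1133 and 2007 CPM (0.83, 0.80 to 0.85). Actn1, the alpha-actinin of non-muscle cells, passed in the other direction at 14.7 and 9.57 CPM (-0.61, -0.92 to -0.32), but its log2 ratio was 0.14 without lane 2 and -0.28 without the cells rich in other cell types' markers. Titin (Ttn, log2 ratio 0.18), nebulin (Neb, 0.19), telethonin (Tcap, 0.20) and desmin (Des, 0.14), named after their values were seen, were among the 23 under 1.5-fold.

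**Figure D2:**
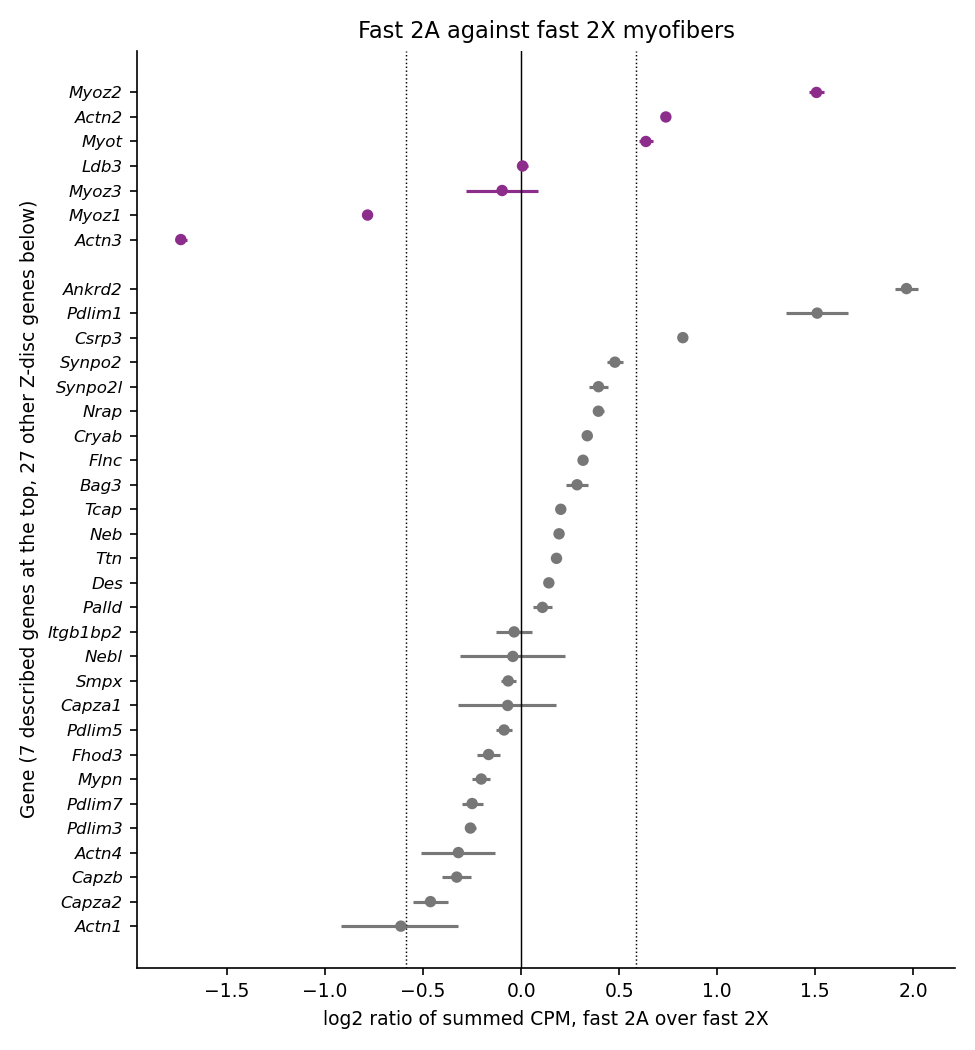
Log2 ratio of summed CPM, fast 2A over fast 2X, for the 7 described genes (purple) and 27 other Z-disc genes (grey), with bars for 95% limits of counting error and dotted lines at 1.5-fold. Actn3 at -1.74 and Myoz2 at 1.51 lie farthest out among the 7, and 23 of the 27 others fall between the dotted lines.

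The isoform balance was graded along the mix of Myh1 and Myh2 in a cell. Among fast 2X and fast 2A cells, those with a Myh2 share of Myh1 and Myh2 under 20% had a median Actn3 share of 66.2%, and Actn3 led in 48 of 48. From 20% to 50% the median was 53.3% and Actn3 led in 40 of 69 cells. From 50% to 80% it was 24.3% and from 80% it was 18.3%, and Actn3 led in 0 of 35 and 0 of 16 cells. The drop of the median was largest between the middle bins, which meet at the border of the classes.

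The Myoz1 share was also lower in each higher bin, and its median stayed above that of equal counts. Its medians were 92.8%, 84.5%, 66.6% and 55.1% in the 4 bins. Myoz1 led in 48 of 48, 69 of 69, 32 of 35 and 10 of 16 cells. Over all 171 cells the Spearman correlation with the Myh2 share was -0.88 for the Actn3 share and -0.85 for the Myoz1 share. It was -0.72 and -0.70 within the 117 fast 2X cells, and -0.48 and -0.52 within the 51 fast 2A cells. These cells were taken as sharing a mouse and came from 8 libraries. The share and the axis come from the same counts of a cell. Over all 171 cells the correlation with the total counts of a cell was 0.14 for both shares. With the mitochondrial share it was -0.26 for the Actn3 share and -0.25 for the Myoz1 share. With the number of genes detected it was 0.18 and 0.19.

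**Figure D3:**
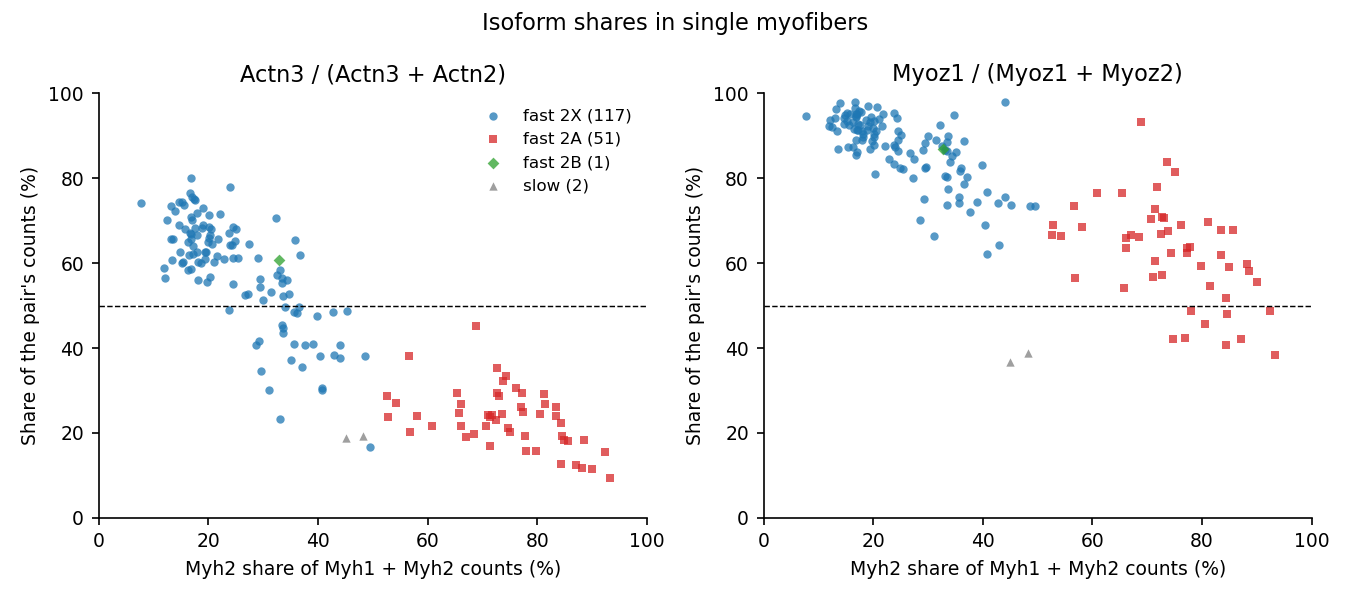
Share of Actn3 in Actn3 and Actn2 counts (left) and of Myoz1 in Myoz1 and Myoz2 counts (right), in percent, against the Myh2 share of Myh1 and Myh2 counts, with 1 point per cell, coloured by class, and a dashed line at equal counts. Points descend from upper left to lower right in both panels, crossing the dashed line inside the fast 2X class for Actn3 (29 of 117 cells not above it) and inside the fast 2A class for Myoz1 (9 of 51).

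Taking both pairs of genes, the fast cells fell into 3 of the 4 possible combinations. Actn3 and Myoz1 both led in 88 fast 2X cells and 0 fast 2A cells. Myoz1 led but Actn3 did not in 29 fast 2X and 42 fast 2A cells. Neither led in 9 fast 2A cells and 0 fast 2X cells. The combination of Actn3 above Actn2 without Myoz1 above Myoz2 was found in 0 of 117 and 0 of 51 cells. These counts follow from each pair taken alone, since Myoz1 led in 117 of 117 fast 2X and Actn3 in 0 of 51 fast 2A cells. They show no further relation between the pairs.

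The 29 fast 2X cells in which Actn3 did not lead had a Myh2 share of 23.8% to 49.5% (median 36.6%), against 7.79% to 36.7% (median 19.4%) in the other 88. Their Myoz1 share was also lower, with a median of 75.7% against 91.3%. They were less deeply sequenced, with median counts of 157708 against 272528, and the part of depth was not tested beyond the thinning below. The fast 2X cell with the lowest Actn3 share, 16.7% from 47 Actn3 and 234 Actn2 counts, had a Myh2 share of 49.5%, at the edge of the class.

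The 9 fast 2A cells in which Myoz2 led lay at the other end. Their Myh2 share had a median of 84.3% against 72.7% in the other 42, and their Actn3 share a median of 15.6% against 24.1%. Myh7, the slow myosin, had a median share of 1.88% against 0.98% of the 5 Myh genes. Its upper quartile was 11.2% against 1.87%, and its highest share 24.1% against 43.2%. Median counts of the 9 cells were 109063 against 209529. The fast 2A cell with the lowest Actn3 share, 9.27%, was also the one with the lowest Myoz1 share, 38.4%, and its Myh2 share was 93.3%.

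Depth and plate were checked against both shares. After each cell was thinned to 28827 counts, Actn3 led in 92 of 117 fast 2X and 0 of 51 fast 2A cells, and Myoz1 in 117 of 117 and 41 of 51. On each of the 8 plates, which held 6 to 21 fast 2X and 2 to 10 fast 2A cells, the median Actn3 share was higher in fast 2X cells, by 33.1 to 45.2 percentage points. For the Myoz1 share the difference ran from 12.5 to 40.9 points in the same direction on 8 of 8 plates. Within plates the log2 ratio ran from -2.23 to -1.30 for Actn3, from 0.52 to 0.82 for Actn2, from -1.14 to -0.50 for Myoz1, from 0.99 to 2.36 for Myoz2 and from 0.46 to 0.87 for Myot. Those of Ldb3 (-0.23 to 0.14) and Myoz3 (-0.58 to 0.61) had both signs. The lanes differed in fast 2A cells, where the summed Actn3 share was 19.6% on lane 1 and 25.7% on lane 2, while the fast 2X cells had 60.8% and 61.8%. The lanes held different plates and different cells, so lane cannot be told apart from plate here.

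**Figure D4:**
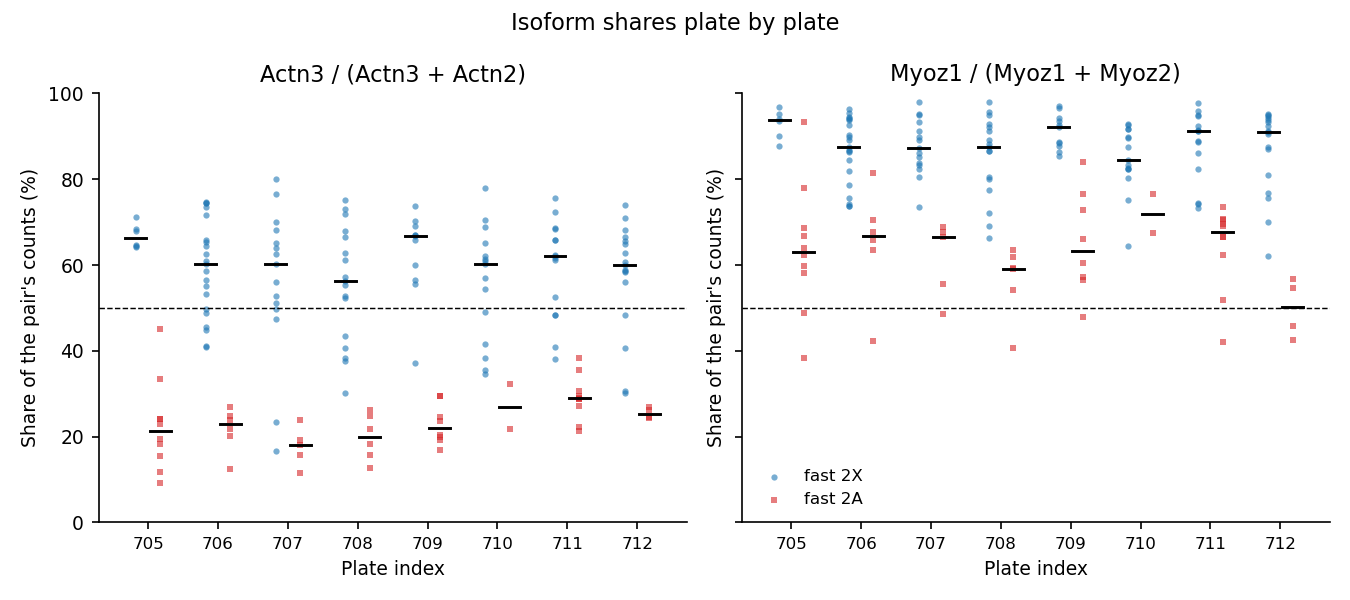
Actn3 share (left) and Myoz1 share (right), in percent, of each fast 2X (blue) and fast 2A (red) cell by plate index, with the median of each class as a black bar and a dashed line at equal counts. The blue median lies above the red median on 8 of 8 plates in both panels, by at least 33.1 points for Actn3 and 12.5 points for Myoz1.

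The cells left out by the filters showed the same order of the shares, with a smaller gap. Of these, 420 fast 2X and 66 fast 2A cells had at least 20 Myh counts and could be given a class. Among those with at least 20 Actn3 and Actn2 counts, Actn3 led in 235 of 302 fast 2X cells (77.8%) and 8 of 57 fast 2A cells (14.0%), with median shares of 57.5% and 41.3%. Median Myoz1 shares were 90.7% in 187 fast 2X and 83.0% in 26 fast 2A cells, and Myoz1 led in all of them. In 13 left-out fast 2B cells the median Actn3 share was 71.6%, and Actn3 led in 13 of 13.

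By class, the log2 ratios of Actn2 and Myot in the left-out cells, 0.74 and 0.63, were near those of the kept cells, and that of Myoz2 was 0.89. The ratio of Actn3 was -0.26, far smaller than in the kept cells, and that of Myoz1 was 0.11, of the opposite sign. The left-out cells had median mitochondrial shares of 52.7% in fast 2X and 52.0% in fast 2A, and a class there rested on a median of 76 and 75.5 Myh counts, against 3697 and 2291 in kept cells. Their median Myh2 share was 62.3% in fast 2A and 31.1% in fast 2X, nearer to each other than the 74.3% and 22.1% of the kept cells. Which of these moved the ratios was not tested.

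**Figure D5:**
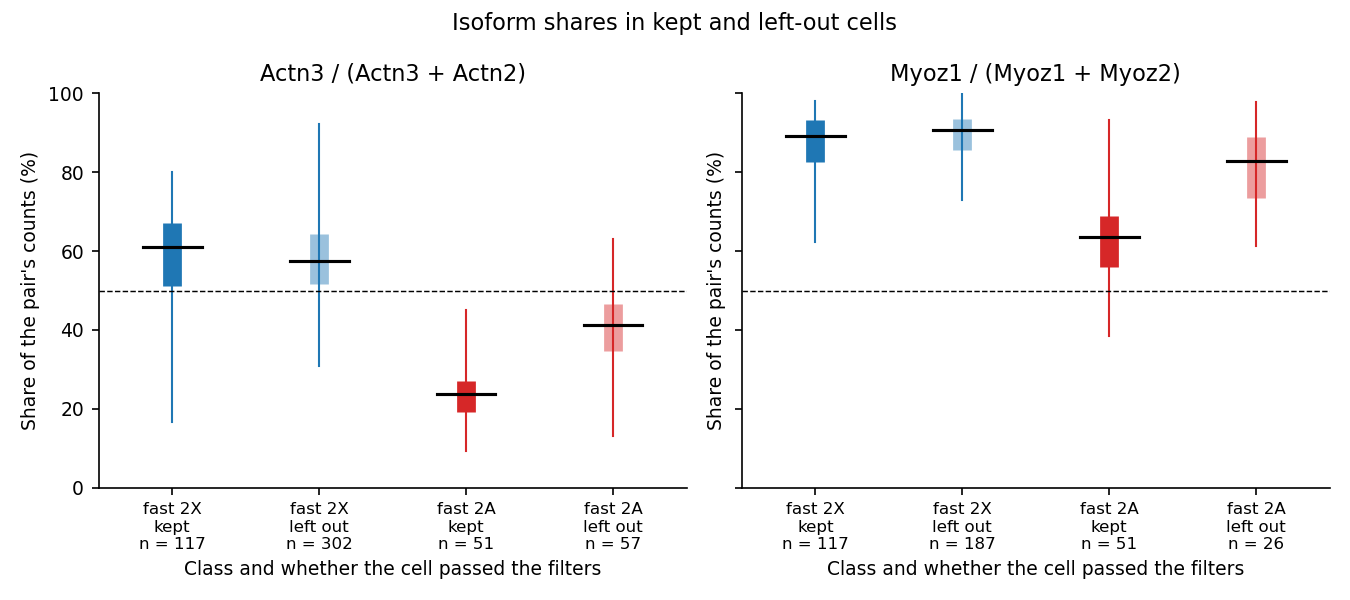
Actn3 share (left) and Myoz1 share (right), in percent, in cells that passed the filters and cells left out, by class, with the median as a black bar, the quartiles as a thick bar and the range as a thin line. The fast 2A medians of the left-out cells, 41.3% and 83.0%, lie between the fast 2A and fast 2X medians of the kept cells.

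Some of the 7 genes varied together from cell to cell. Over the 171 cells the Spearman correlation of CPM was 0.80 between Actn3 and Myoz1 and 0.81 between Actn2 and Myoz2, and it was 0.64 and 0.60 within fast 2X cells. Myot followed Myoz2 (0.70) and Actn2 (0.65). Actn3 and Actn2 correlated at -0.53 over all cells but at -0.20 within fast 2X cells. Ldb3 was nearest to Actn2, at 0.39, and Myoz3 lay between -0.08 and 0.04 with the others. All CPM values of a cell share its total, and cells of every class enter the values over 171 cells.

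The genes most like each member were taken from 8745 genes by the same measure. For Actn3 they were Pvalb (0.88), a calcium buffer of fast fibers, Mybpc2 (0.88), the fast myosin binding protein C, Mss51 (0.87), Casq1 (0.83), the calcium store protein of the sarcoplasmic reticulum, and Myh8 (0.80). For Myoz1 they were the glycolytic enzymes Aldoa (0.85) and Tpi1 (0.84), then Actn3, Pygm (0.80), the glycogen phosphorylase of muscle, and Mss51 (0.80). For Actn2 they were Myoz2, Fhl1 (0.77), Ckmt2 (0.75), the creatine kinase of muscle mitochondria, Ldhb (0.75) and the small heat shock protein gene Hspb6 (0.75). For Myoz2 they were Fhl1 (0.82), Actn2, Tnni1 (0.78), the slow troponin I, Ldhb (0.78) and Fxyd6 (0.75). Each of these correlations was lower within fast 2X cells. There they ran from 0.50 for Actn2 with Ldhb to 0.78 for Myoz1 with Aldoa.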

How the data were processed

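The only table used holds raw counts of unique molecular identifiers (UMIs) per gene and cell, as deposited, below 10 descriptive rows that give each cell's plate and lane. The authors made single-cell libraries by mcSCRB-seq, read 66 bases of cDNA, and counted UMIs per gene with zUMIs, mapping to GRCm38 with added spike-ins. The submitters' processing notes list STAR 2.5.4b, featureCounts and Cell Ranger 3.1.0. Whether a cell barcode occurred in both lanes was not tested, since the columns were read under unique names. The lanes were taken as technical divisions of the cells of 1 mouse, and no per-cell column belonged to another series.

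Gene counts were summed per cell. Cells with more than 5000 genes and under 20% counts from mt- genes were kept. Counts were summed over a class and scaled to its total as CPM, with exact Poisson limits, exact conditional binomial limits for ratios and Clopper-Pearson limits for shares of cells. Equal counts were taken as not above. Ratios across all genes used those with at least 500 counts and left out the 5 Myh genes, and the ratio code was tested on simulated data. No doublet caller was run on these sorted wells. Free RNA between wells was not modelled. Sequences are from GENCODE M21 transcripts on GRCm38 and RefSeq promoters.

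The genes named are the 7 members, the other Z-disc genes past 1.5-fold (at most 6 in each direction), and the 5 genes best correlated with each of Actn3, Actn2, Myoz1 and Myoz2. Ttn, Neb, Tcap and Des were added after their values were seen. The members and lists were chosen with earlier results of these data known. Alternatives changed the class rule, filters, scaling, summary, depth, lane, plate and margin. Python 3.11.15, numpy 2.4.6, pandas 2.3.3, SciPy 1.17.1 and matplotlib 3.10.9 were used.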

Additional observations from a re-analysis of the deposited data

How the results depend on the processing

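The number of the 7 genes past 1.5-fold stayed at 5 under 21 alternatives, and each of Actn3, Actn2, Myoz1, Myoz2 and Myot had its direction and its side of 1.5-fold in 21 of 21. The lowest and highest log2 ratios were -1.91 and -1.53 for Actn3, 0.67 and 0.85 for Actn2, -0.85 and -0.67 for Myoz1, 1.27 and 1.75 for Myoz2, and 0.59 and 0.75 for Myot. The extremes of Actn3 and Myoz2 came from leaving out lane 1 or lane 2, and Myoz2 (1.75) had a larger ratio in size than Actn3 (-1.53) without lane 1. The left-out cells taken alone were not among the 21 alternatives. In them the log2 ratio was -0.26 for Actn3, under 1.5-fold, and 0.11 for Myoz1, of the opposite sign. Fast 2X cells with Actn3 above Actn2 were 86.9% when only cells with a leading Myh gene of at least 60% entered and 27.4% when at least 2 times the other gene was asked. With that margin, Myoz1 led in 37.3% of fast 2A cells and 97.4% of fast 2X cells. The other Z-disc genes past 1.5-fold numbered 2 after thinning, when fewer counts entered, and 3 to 5 otherwise. Actn1 was on the same side of 1.5-fold in 11 of 21 alternatives and its log2 ratio ran from -1.30 after thinning to 0.14 without lane 2, with -0.94 without lane 1, and the cause was not tested. Over all genes, 65 were higher in fast 2A and 53 in fast 2X after thinning, and 4034 and 6397 when genes with at least 1 count were admitted. The alternatives without fragments, without single plates and without cells rich in other markers were added after the data were seen. No test paired by plate was run, and differences within plates are given as values only. Cells taken as coming from 1 mouse give no spread between animals, and slow and fast 2B cells were too few to describe a class.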
